A study of Mus musculus with 5 samples.

Results

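The genes described here encode the subunits of the glutamate, GABA and glycine receptors, 46 of the 21938 protein-coding genes of GENCODE release M21 on mouse chromosomes 1 to 19, X and Y. They were chosen by symbol alone and comprise 4 AMPA (Gria), 7 NMDA (Grin), 5 kainate (Grik), 2 delta (Grid), 8 metabotropic glutamate (Grm), 13 GABA-A (Gabra, Gabrb, Gabrg and Gabrd), 2 GABA-B (Gabbr) and 5 glycine receptor genes (Glra and Glrb). Gfi1, a zinc finger repressor, and Lsd1, a histone demethylase, were each immunoprecipitated from 2 MG medulloblastomas, numbered 39 and 41, and sequenced, to find the genes that both occupy in these tumors. An MG tumor grows from Prominin1+, lineage-negative cerebellar stem cells of C57BL/6 pups aged 5 to 7 days that were infected with retroviruses for Gfi1 and a stabilised (threonine-to-alanine) form of Myc and transplanted into immunodeficient NSG mice. Both proteins were therefore assayed in untreated tumors that all carry viral Gfi1, and no tumor without Gfi1 and no normal cerebellum was assayed by ChIP. The listed input chromatin came from pooled MGB tumors, and whether it served each library is not given in the sources used here.

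Ionotropic receptors are ligand-gated channels, assembled from several subunits, that open within milliseconds when glutamate (AMPA, NMDA and kainate types) or GABA and glycine (the inhibitory types) bind, and metabotropic glutamate and GABA-B receptors act more slowly through G proteins. Many of the genes are expressed mainly in neurons that have left the cell cycle. Lsd1 works in the CoREST complex, which several DNA-binding repressors recruit, among them Gfi1 through its SNAG domain and REST, the repressor that keeps many neuronal genes, receptor subunits included, silent outside neurons through a DNA element called RE1.

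The 4 peak lists held 36836 (Gfi1, tumor 39), 25078 (Gfi1, tumor 41), 30367 (Lsd1, tumor 39) and 33213 peaks (Lsd1, tumor 41). Each list gives a position and a score of at least 50 per peak but no read counts, so that no depth or precision per peak can be stated. A gene was counted as having a TSS peak when a peak came within 1000 bp of any of its transcription start sites, and the height of that peak is given as its score percentile, the share of all peaks in the same list with the same or a lower score. A peak is a measure of enrichment by the antibody and not of transcription. With 2 tumors per factor no test between groups was run, and counts of receptor genes are read beside the same count over all protein-coding genes. At the start sites of 5 marker genes of blood and vessel (Ptprc, Pecam1, Cdh5, Cd3e and Aif1) no library had a peak. Depending on the library, between 3 and 6 of 6 neural progenitor genes had one. Of 3 genes of the granule neuron lineage, between 1 and 3 had one. For Gfi1 in tumor 41 both of these neural sets were below the 54.3% of all protein-coding genes, with 3 progenitor genes and 1 lineage gene. In the other libraries both sets were above the share of all genes.

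The highest receptor gene promoters and promoters without any peak are shown first, since the contrast between them runs through all that follows. The 3 receptor genes with the highest mean score percentile over the 4 libraries were Gabbr1, which encodes the subunit of the GABA-B receptor that binds GABA, and Grik4 and Grik5, which encode the high-affinity kainate receptor subunits. Their RefSeq promoters (GRCm38.p6, 300 bases, from 250 before to 50 after the start) are set above those of the first 3 genes in alphabetical order that had no TSS peak in any library and an entry in the promoter table, Gabra2, Gabra3 and Gabra6, which encode alpha subunits of the GABA-A receptor. Capitals mark CG dinucleotides. The positions are chr17:37045716-37046015 on the plus strand (Gabbr1), chr9:42944322-42944621 on the minus strand (Grik4), chr7:25072320-25072619 on the minus strand (Grik5), chr5:71095800-71096099 on the minus strand (Gabra2), chrX:72656870-72657169 on the minus strand (Gabra3) and chr11:42321023-42321322 on the minus strand (Gabra6).
Gabbr1: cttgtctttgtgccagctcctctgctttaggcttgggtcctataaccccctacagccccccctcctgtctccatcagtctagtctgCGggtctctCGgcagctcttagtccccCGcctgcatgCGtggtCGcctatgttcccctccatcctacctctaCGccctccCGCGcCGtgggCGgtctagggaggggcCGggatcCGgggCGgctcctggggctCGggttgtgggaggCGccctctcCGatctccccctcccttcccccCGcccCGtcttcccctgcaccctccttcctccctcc
Grik4: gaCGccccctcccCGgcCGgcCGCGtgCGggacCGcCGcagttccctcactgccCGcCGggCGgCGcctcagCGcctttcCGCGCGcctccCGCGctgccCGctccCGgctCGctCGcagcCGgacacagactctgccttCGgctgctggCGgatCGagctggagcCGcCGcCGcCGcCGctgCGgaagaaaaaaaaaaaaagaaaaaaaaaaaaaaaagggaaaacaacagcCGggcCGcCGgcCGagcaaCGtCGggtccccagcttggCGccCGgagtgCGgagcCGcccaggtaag
Grik5: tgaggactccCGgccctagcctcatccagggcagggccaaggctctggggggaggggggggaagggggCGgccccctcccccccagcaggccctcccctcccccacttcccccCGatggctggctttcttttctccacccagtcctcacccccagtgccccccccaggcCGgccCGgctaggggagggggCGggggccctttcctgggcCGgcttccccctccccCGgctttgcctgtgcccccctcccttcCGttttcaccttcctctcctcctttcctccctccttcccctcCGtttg
Gabra2: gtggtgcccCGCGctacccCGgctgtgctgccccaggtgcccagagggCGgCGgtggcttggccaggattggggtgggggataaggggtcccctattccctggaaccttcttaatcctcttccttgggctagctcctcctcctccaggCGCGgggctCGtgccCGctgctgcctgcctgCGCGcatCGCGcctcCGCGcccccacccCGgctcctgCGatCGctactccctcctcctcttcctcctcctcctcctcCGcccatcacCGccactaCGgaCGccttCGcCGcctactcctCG
Gabra3: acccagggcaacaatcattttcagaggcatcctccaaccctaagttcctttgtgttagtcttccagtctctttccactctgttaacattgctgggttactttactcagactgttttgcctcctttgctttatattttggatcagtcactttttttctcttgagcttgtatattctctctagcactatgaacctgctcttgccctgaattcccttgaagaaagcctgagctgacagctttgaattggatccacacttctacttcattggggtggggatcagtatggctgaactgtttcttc
Gabra6: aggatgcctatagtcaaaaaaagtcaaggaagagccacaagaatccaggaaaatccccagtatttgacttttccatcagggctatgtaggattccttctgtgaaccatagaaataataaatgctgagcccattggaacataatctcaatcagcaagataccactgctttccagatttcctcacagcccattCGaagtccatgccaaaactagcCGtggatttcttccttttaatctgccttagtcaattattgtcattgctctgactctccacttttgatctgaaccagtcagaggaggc
The Grik4 promoter held 42 CG dinucleotides and the Gabbr1 promoter 18. The Grik5 promoter was GC-rich (72.0%) but held only 10 CG dinucleotides. Among the promoters without a peak, Gabra2 held 25, Gabra6 held 2 and Gabra3 held 0, so that CG number alone did not sort these 6 promoters by their peaks.

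Fewer receptor genes than protein-coding genes in general had a TSS peak, in all 4 libraries. For Gfi1, 27 of the 46 receptor genes had a TSS peak in tumor 39 (58.7%, against 65.0% of all protein-coding genes) and 11 in tumor 41 (23.9%, against 54.3%). For Lsd1 the counts were 17 in tumor 39 (37.0%, against 58.5%) and 21 in tumor 41 (45.7%, against 61.7%). The gap was narrowest in the Gfi1 library of tumor 39, which has the longest list, and widest in that of tumor 41, which has the shortest. When peaks shared with the start of another gene were left out, the direction turned in the Gfi1 library of tumor 39, with 45.7% of receptor genes against 44.3% of all, and the gap narrowed in the others, to 15.2% against 34.9% (Gfi1, tumor 41), 28.3% against 37.7% and 37.0% against 40.8% (Lsd1). Peaks in every library were the rule among protein-coding genes in general (53.1%) but were found at 10 receptor genes (21.7%). A further 18 receptor genes (39.1%, against 33.6% of all) had no TSS peak in any library, and the other 18 (7 in 1 library, 4 in 2 and 7 in 3) had a peak in some libraries only, which was the case for 4.50%, 3.72% and 5.03% of all genes.

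**Figure D1:**
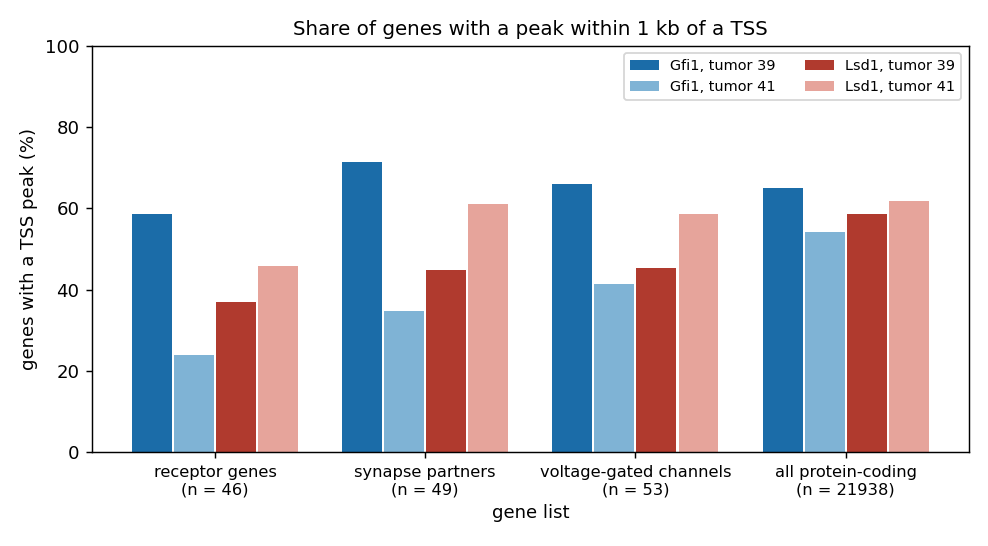
Bars give the percentage of genes with a peak within 1 kb of a TSS in each of the 4 libraries, for the 46 receptor genes, 49 synapse partner genes, 53 voltage-gated ion channel genes and all 21938 protein-coding genes. The receptor genes have the lowest bar in each library, from 23.9% (Gfi1, tumor 41) to 58.7% (Gfi1, tumor 39).

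Where receptor genes did have a TSS peak, its score was lower than at other genes. Over the 27, 11, 17 and 21 receptor genes that had one, the median percentile of the highest TSS peak was 58.6 and 37.7 for Gfi1 (tumors 39 and 41, in this order throughout) and 58.0 and 65.6 for Lsd1, and over all genes with a TSS peak it was 82.5, 77.4, 79.0 and 81.0. Peaks in the upper 20% of the list were found at 5, 3, 3 and 4 receptor genes in the same order (10.9%, 6.52%, 6.52% and 8.70%), against 36.2%, 24.6%, 28.1% and 32.2% of all protein-coding genes. High-confidence peaks, those in the upper 20% in both tumors with at least 50% overlap (4387 peaks for Gfi1 and 5181 for Lsd1), were present at 3 receptor genes for Gfi1 (6.52%, against 22.9%) and at 3 for Lsd1 (6.52%, against 25.9%). These were Gabbr1, Grik4 and Grik5 for both factors.

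**Figure D2:**
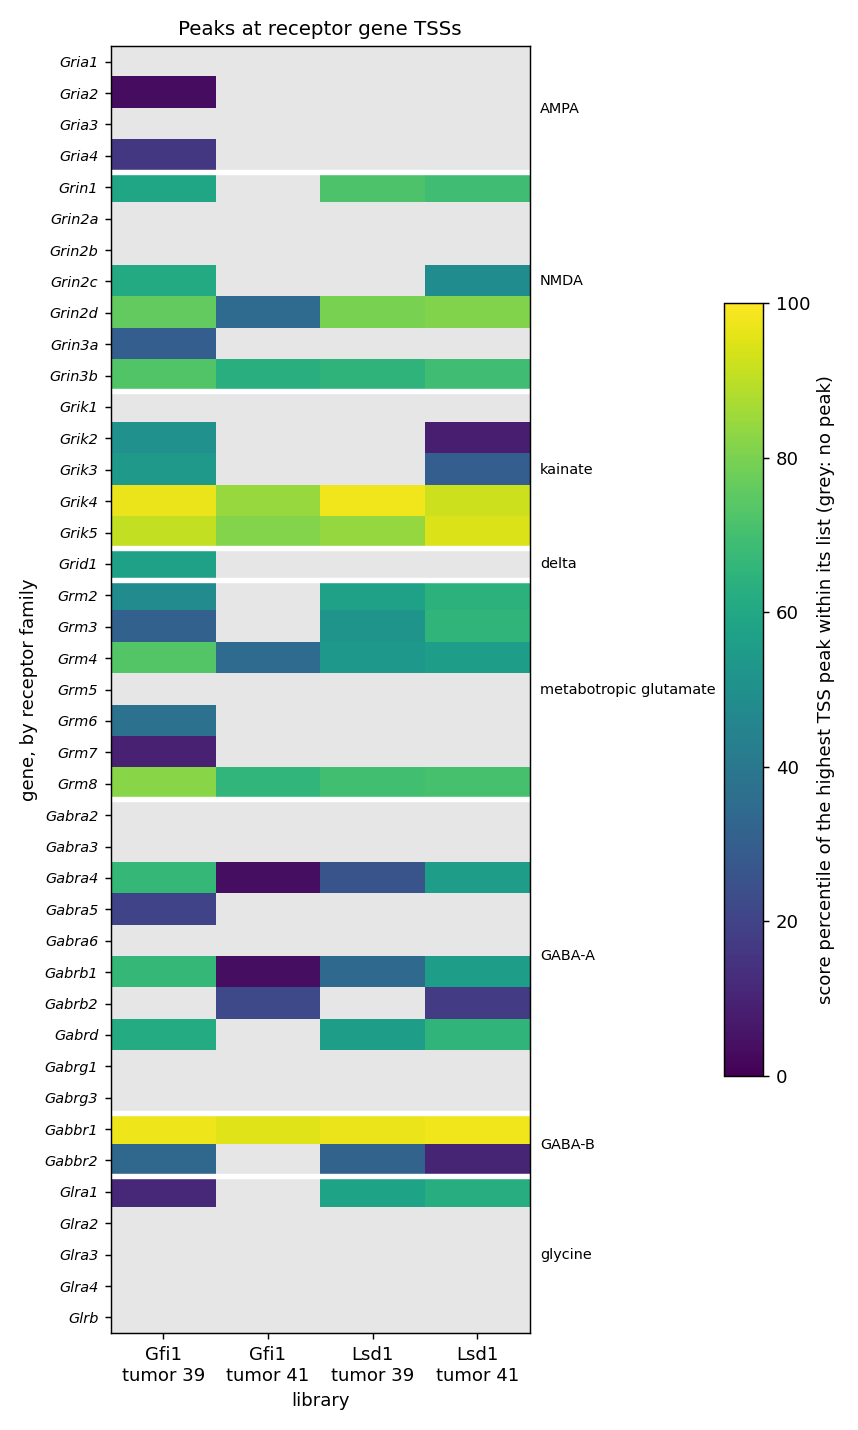
Each cell gives the score percentile of the highest TSS peak of one of 41 receptor genes (vertical axis, by family) in a library (horizontal axis), with grey where there was no peak. Gabbr1, Grik4 and Grik5 are above percentile 80 in every library, most of the GABA-A and glycine receptor genes are grey throughout, and the Gfi1 library of tumor 41 is grey at 31 of the 41 genes drawn.

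Among the excitatory channels, the 4 AMPA receptor genes, whose products carry most fast excitatory transmission, had few TSS peaks. Gria1 and Gria3 had none at a TSS. Gria2, which encodes the subunit that makes AMPA receptors impermeable to calcium, and Gria4 each had a TSS peak only in the Gfi1 library of tumor 39, at percentiles 3.16 and 16.3. No AMPA receptor gene had an Lsd1 peak at its TSS in either tumor (0 of 4, against 58.5% and 61.7% of all protein-coding genes).

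NMDA receptors need both the obligatory subunit encoded by Grin1 and a partner encoded by a Grin2 or Grin3 gene. The TSS peak of Grin1 was at percentile 58.6 for Gfi1 in tumor 39, absent in tumor 41, and at 71.9 and 69.4 for Lsd1 (mean 70.6 ± 1.76, SD, n = 2 tumors). Grin2a and Grin2b, which encode the main partners in the forebrain, had no TSS peak in any library. Grin2d, which encodes a subunit of slow kinetics prominent early in development, had a peak at percentiles 75.8 and 35.0 for Gfi1 and 80 and 81.2 for Lsd1 (80.6 ± 0.876). The 2 Lsd1 libraries thus lay close together at Grin2d, and the 2 Gfi1 libraries did not (55.4 ± 28.8).

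Grin2c, which encodes the partner of mature cerebellar granule neurons, had a peak for Gfi1 in tumor 39 (percentile 61.2) and for Lsd1 in tumor 41 (48.8). At Grin3b, which encodes a less common subunit, Gfi1 reached percentiles 72.8 and 62.7 (67.7 ± 7.11) and Lsd1 65.0 and 69.3 (67.2 ± 3.04), but its highest peaks also lay within 1000 bp of a start of the neighbouring genes Wdr18 or Tmem259. Its relative Grin3a had a peak only for Gfi1 in tumor 39 (30.0).

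The kainate receptor genes held the clearest contrast within a family. Grik4 (chr9:42518135-42944493, minus strand) had TSS peaks at percentiles 97.0 and 84.4 for Gfi1 (90.7 ± 8.95) and 97.8 and 92.4 for Lsd1 (95.1 ± 3.80), each between 3163 and 4628 bp wide. Grik5 (chr7:25009849-25072346, minus strand) had them at 90.7 and 81.6 for Gfi1 (86.1 ± 6.42) and at 84.2 and 94.7 for Lsd1 (89.4 ± 7.39). The start of Grik5 lies within 1000 bp of a start of Zfp574, a zinc finger gene, so that its peaks cannot be assigned to either gene alone. Both genes were high in all 4 libraries. The genes of the low-affinity subunits, which can form channels on their own, differed from them. Grik1 had no TSS peak, Grik2 had one for Gfi1 in tumor 39 (50.5) and Lsd1 in tumor 41 (8.24), and Grik3 had one in the same 2 libraries (53.6 and 29.9).

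The delta receptors resemble ionotropic receptors but act as synaptic adhesion proteins. Grid1 had a peak only for Gfi1 in tumor 39 (57.1).

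Of the 8 metabotropic glutamate receptor genes, 2 had peaks in all 4 libraries (25.0%, against 53.1% of all protein-coding genes) and 2 in none (25.0%, against 33.6%). The 2 with peaks in all libraries encode group III receptors, which lower cyclic AMP and dampen transmitter release. Grm8 stood at 82.2 and 66.0 for Gfi1 (74.1 ± 11.4) and at 69.9 and 70.8 for Lsd1 (70.3 ± 0.623). Grm4, the group III receptor of granule neurons, stood at 73.3 and 35.0 for Gfi1 (54.1 ± 27.1) and at 53.4 and 55.6 for Lsd1 (54.5 ± 1.53). The other group III genes, Grm6 and Grm7, had a peak only for Gfi1 in tumor 39, at 37.5 and 9.23, and it was shared with a neighbouring gene's start.

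Grm2 and Grm3, the group II receptor genes, had the same set of libraries. Both lacked a TSS peak for Gfi1 in tumor 41, stood at 48.2 and 30.9 for Gfi1 in tumor 39, and were higher for Lsd1, with 57.3 and 64.1 at Grm2 (60.7 ± 4.76) and 51.9 and 65.6 at Grm3 (58.8 ± 9.65). Grm5, a group I receptor that raises intracellular calcium, had no TSS peak in any library. Both group II genes and all 4 group III genes thus had a peak in at least 1 library, while 33.6% of all protein-coding genes had none. At Grm6 and Grm7 this rests on a single peak each, in the longest list.

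GABA-A receptors are chloride channels usually built from alpha, beta and gamma or delta subunits. No TSS peak in any library was found at 7 of their 13 genes (53.8%, against 33.6% of all protein-coding genes), among them Gabra2, Gabra3, Gabra6, Gabrg1 and Gabrg3. Gabrd, the delta subunit of extrasynaptic receptors of granule neurons, stood at 61.4 for Gfi1 in tumor 39 and at 56.1 and 65.6 for Lsd1 (60.9 ± 6.70), with no peak for Gfi1 in tumor 41.

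Gabra4 and Gabrb1 start next to each other on opposite strands and share 1 peak in each library, at chr5:71657293-71658506 for Gfi1 in tumor 39. At Gabra4, Gfi1 reached percentiles 66.7 and 3.86 (35.3 ± 44.4) and Lsd1 26.1 and 56.1 (41.1 ± 21.3). At Gabrb1 the value for Lsd1 in tumor 39 was 34.0, from a second peak near another start. Spreads of this size over 2 tumors leave the height of this promoter undefined. Gabrb2 was the only receptor gene with TSS peaks in tumor 41 alone, with a peak for Gfi1 in tumor 41 (22.0) and Lsd1 in tumor 41 (17.5) and none in tumor 39, and Gabra5 had a peak only for Gfi1 in tumor 39 (20.3).

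Most GABA-A genes lie in clusters. In the chromosome 5 cluster 2 of 4 genes had peaks in all 4 libraries, against 53.1% of all protein-coding genes. These were Gabra4 and Gabrb1 of the shared promoter, which are not independent counts. Their neighbours Gabra2 and Gabrg1 had no TSS peak in any library. In the chromosome 7 cluster 1 of 3 genes had peaks in all 4 libraries and 1 had none in any. In the chromosome 11 cluster 0 of 4 genes had peaks in all 4 libraries and 3 had none in any.

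The GABA-B receptor needs both of its subunits, and their genes had unlike peaks. Gabbr1 (chr17:37045966-37075067, plus strand) stood at 97.5 and 95.2 for Gfi1 (96.3 ± 1.62) and 97.0 and 97.7 for Lsd1 (97.4 ± 0.555), the highest receptor gene in 3 of the 4 libraries and second to Grik4 in the Lsd1 library of tumor 39. Each library had a peak of 3776 to 4353 bp over the first Gabbr1 start and at least 1 lower peak at starts further in. Gabbr2, whose product couples the receptor to its G protein, had a peak near its 5′ start at 33.8 for Gfi1 in tumor 39 and at 31.7 for Lsd1 in tumor 39. For Lsd1 in tumor 41 the TSS peak (10.2) lay at an internal start, chr4:46689000-46690159, so that the values of the tumors are not of 1 promoter, and for Gfi1 in tumor 41 there was none.

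Glycine receptor genes had few peaks. Glra2, Glra3, Glra4 and Glrb, the last of which encodes the beta subunit that anchors the receptor to gephyrin, had no TSS peak in any library. Glra1, the alpha subunit of adult spinal cord and brainstem, had peaks for Lsd1 at 58.0 and 62.4 (60.2 ± 3.10) and for Gfi1 in tumor 39 at 11.6. Its Gfi1 peak thus ranked far below its Lsd1 peaks. None of the 4 X-linked receptor genes (Gabra3, Glra2, Glra4 and Gria3) had a TSS peak, and 55.1% of X-linked protein-coding genes had none either.

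Within a tumor the 2 factors were nested. In tumor 39, 17 receptor genes had TSS peaks of both factors, 10 of Gfi1 only, 0 of Lsd1 only and 19 of neither. In tumor 41, 11 had both, 0 had Gfi1 only, 10 had Lsd1 only and 25 had neither. The factor with the larger set was thus Gfi1 in one tumor and Lsd1 in the other, and in each tumor it was the factor with the longer list. The 10 genes with Gfi1 only in tumor 39 were Gabra5, Gria2, Gria4, Grid1, Grik2, Grik3, Grin2c, Grin3a, Grm6 and Grm7. Over all protein-coding genes the smaller set was nested in the same way, with 99.0% of genes with Lsd1 in tumor 39 also having Gfi1 there, and 99.3% of genes with Gfi1 in tumor 41 also having Lsd1. The larger set was shared less often at receptor genes, at 63.0% of those with Gfi1 in tumor 39 (89.1% of all) and 52.4% of those with Lsd1 in tumor 41 (87.3% of all). The 2 Lsd1 libraries shared 17 receptor genes (100% of those in tumor 39 and 81.0% of those in tumor 41). Over all protein-coding genes these shares were 98.5% and 93.4%. The 2 Gfi1 libraries shared 10 receptor genes (37.0% of those in tumor 39 and 90.9% of those in tumor 41). Here the shares over all genes were 83.0% and 99.4%. The antibodies and the tumors cannot be told apart from list length with 1 library of each kind.

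Peaks at CpG-rich starts were common in general and much less so at receptor genes. A gene was called CpG-rich when the 1000 bp around any of its starts had a CpG observed/expected ratio of at least 0.6 and a GC content of at least 50%, and 27 receptor genes (58.7%) and 51.2% of all protein-coding genes passed. Of the 27, 20 had a Gfi1 peak in tumor 39 (74.1%, against 97.6% of all CpG-rich genes) and 8 in tumor 41 (29.6%, against 85.7%). For Lsd1 the counts were 12 (44.4%, against 90.2%) and 15 (55.6%, against 94.1%). CpG-rich genes without any TSS peak were rare in general (2.12%), but 7 of the 27 receptor genes (25.9%) were such genes, among them Gabra2, Gabrg3, Glrb, Grik1 and Grin2a.

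At CpG-poor starts the gap was smaller and its direction varied. Of 19 such genes, 7 and 3 had Gfi1 peaks (36.8% and 15.8%, against 30.7% and 21.2% of all CpG-poor genes) and 5 and 6 had Lsd1 peaks (26.3% and 31.6%, against 25.3% and 27.7%). With stricter limits (a ratio of at least 0.75 and a GC content of at least 55%), 34 receptor genes were CpG-poor, and 17 and 7 of them had Gfi1 peaks (20.6% in tumor 41, against 38.6%) and 10 and 13 Lsd1 peaks (29.4% and 38.2%, against 43.1% and 46.1%), so that only Gfi1 in tumor 39 was near the 49.8% of all such genes. With the first limits, Grik5 and Grin2d were the CpG-poor receptor genes with peaks in all 4 libraries. With either limit the gap to other genes was wider at CpG-rich than at CpG-poor starts in each library, as the plot by CpG class shows.

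**Figure D3:**
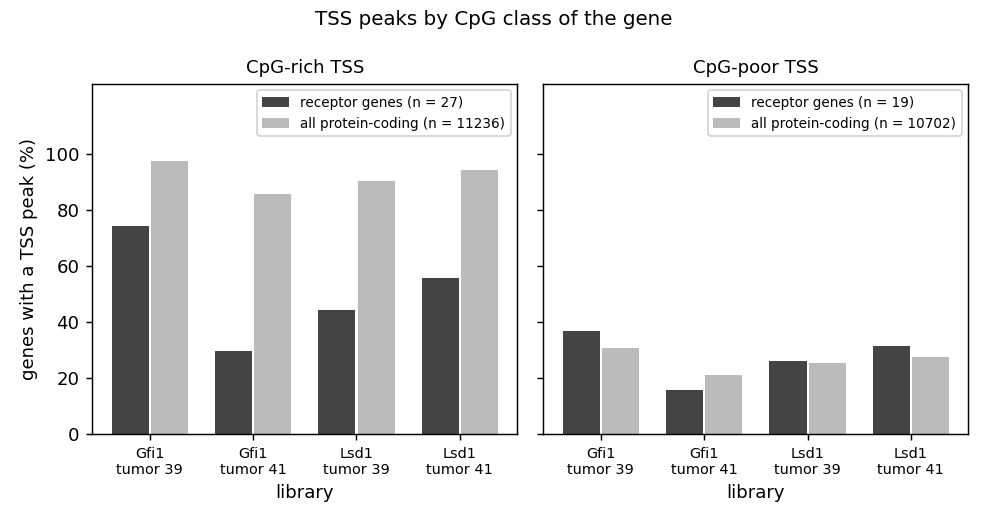
Bars give the percentage of receptor genes (dark) and of all protein-coding genes (light) with a TSS peak in each library, for genes with a CpG-rich start (left, 27 and 11236 genes) and without (right, 19 and 10702 genes). In the left panel the dark bars run from 29.6% to 74.1% and the light bars from 85.7% to 97.6%, and in the right panel the dark bars run from 15.8% to 36.8% and the light bars from 21.2% to 30.7%.

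RE1 elements are shown next, since REST and Gfi1 both bring in Lsd1 with CoREST. The search used the letters CAGCACC, any 2 bases and GGACAG on both strands, exact or with 1 mismatch in the 13 fixed bases. In the 1000 bp centred on each start, 6 of 46 receptor genes held a match (13.0%: Gabrd, Glra1, Glra3, Gria2, Grin1 and Grin2c), against 1.71% of all protein-coding genes, and 1 of them (2.17%, Grin1) was exact, against 0.237%. The core letters of the Gfi1 site, AATCAC, were found in the same windows at 27 receptor genes (58.7%, against 51.2% of all). These shares pool all starts of a gene, and receptor genes had a median of 4 starts, against 3 over all genes. The core was found at 13 of the 18 receptor genes without a TSS peak and 6 of the 10 with peaks in every library. In 1000 bp at the peak centres, 6 of 40 and 2 of 15 receptor gene TSS peaks held it for Gfi1. For Lsd1 these were 1 of 23 and 3 of 28. Over all peaks, which include those away from starts, the shares were higher, at 23.7%, 26.6%, 24.6% and 24.4%. Peaks in introns of receptor genes held the core in 20.4% and 31.2% (Gfi1) and 35.5% and 28.9% (Lsd1) of cases. The share over the TSS peaks of all genes was not computed. The lower share at receptor gene TSS peaks is thus not shown to be particular to these genes. Neither motif holds the other. Matches at receptor gene starts or under receptor gene peaks are printed on the strand that carries the motif, with capitals for the 15 motif bases and the positions of the motif in GRCm38: Grin1, chr2:25319018-25319032 (minus strand, exact, 70 bp after the start); Gabrd, chr4:155397682-155397696 (plus, exonic); Glra1, chr11:55607939-55607953 (plus, exonic); Gria2, chr3:80802991-80803005 (plus, upstream); Grin2c, chr11:115267672-115267686 (plus, upstream); Glra3, chr8:55940764-55940778 (minus, exonic); Gabbr2, chr4:46993030-46993044 (plus, upstream); Grik3, chr4:125590696-125590710 (plus, intronic); and Grm4, chr17:27466831-27466845 (minus, intronic).
Grin1: tacgcttCAGCACCTCGGACAGcacccgc
Gabrd: cagcgttCAGCACCGAGGACGGcggacag
Glra1: gcaggttCAGCACCACGGAGAGcgtccag
Gria2: tcgatttTAGCACCGCGGACAGcgctttg
Grin2c: agcctgcCAGCACCCAGGAGAGacagggg
Glra3: ggagcttCAGCACCTCAGACAGctcccgc
Gabbr2: aggacggCAGTACCTTGGACAGctccaga
Grik3: cagatatCAGCACCTCGGAGAGctcccca
Grm4: caggcttCAGCACCTCGGAGAGcggcacc
The matches of Grin1, Gabrd and Glra1 lay under a peak in the same 3 libraries, Gfi1 in tumor 39 and Lsd1 in both tumors. The Grik3 match, 100003 bp into the gene, lay under an intronic peak in all 4 libraries. The Gria2 and Grm4 matches lay under a Gfi1 peak in tumor 39 only, the Grin2c match under an Lsd1 peak in tumor 41, the Gabbr2 match under an Lsd1 peak in tumor 39, and the Glra3 match under none.

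Among the 6 receptor genes with a match at a start, 5 had a Gfi1 TSS peak in tumor 39 (83.3%) and 0 in tumor 41, and 3 (tumor 39) and 4 (tumor 41, 66.7%) had an Lsd1 peak. All protein-coding genes with a match, 375 in number, had one in 82.7% and 63.2% (Gfi1) and in 76.3% and 80.8% (Lsd1) of cases. A match is a run of letters, and whether REST was present at these sites was not measured. The 10 receptor genes with peaks in all 4 libraries held no such match within 500 bp of a start, Gabbr1, Grik4 and Grik5 included.

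Receptor genes are long, with a median of 194 kb (17.4 kb over all protein-coding genes), and most of their sequence is intron. Intronic peaks, those with their midpoint in an intron and more than 1000 bp from every start, were found in 16 receptor genes for Gfi1 in tumor 39 (34.8%, against 16.1% of all protein-coding genes) and in 6 in tumor 41 (13.0%, against 12.6%). For Lsd1 they were found in 6 (13.0%, against 14.4%) and 7 (15.2%, against 15.4%). Per megabase of intron the receptor genes had fewer intronic peaks than all protein-coding genes, with 3.91 and 1.28 for Gfi1 and 2.47 and 3.03 for Lsd1, against 8.93, 6.04, 7.83 and 8.85. Without Grik4 the receptor gene values were 2.47, 0.495, 0.907 and 1.65. The comparison was not matched for gene length. Long genes in general held few intronic peaks, with a median of 1.00, 0, 0 and 0 in the 354 genes of 400 kb or longer. The low density is thus not shown to be particular to receptor genes.

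Grik4 thus held a large share of all intronic peaks of the receptor genes. It had 19 and 10 for Gfi1 and 20 and 18 for Lsd1, of 49, 16, 31 and 38 in all receptor genes, or 45.2, 23.8, 47.6 and 42.8 per megabase of its introns. As many intronic peaks or more were found in 21, 49, 17 and 26 protein-coding genes, Grik4 among them. Of the 354 genes of 400 kb or longer, 5, 8, 7 and 8 had as many, and the median of these long genes was 1.00, 0, 0 and 0 peaks. The intronic Grik4 peaks had median percentiles of 31.1, 28.1, 26.2 and 36.4. For the intronic peaks of all protein-coding genes the medians were 31.8, 30.3, 33.0 and 31.7.

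Merged over the libraries, the Grik4 peaks formed 27 intronic sites, 5 of which had an intronic peak in all 4 libraries. A peak within 1000 bp of any start or with its midpoint in an exon was not counted as intronic, and 7 of the 27 sites were overlapped by some peak in all 4 libraries. Of the further 2, chr9:42864255-42867542 had Gfi1 peaks at 71.2 and 67.6 and an Lsd1 peak at 85.7 in tumor 39, and its Lsd1 peak of tumor 41 (70.2) came near the start of a non-coding gene inside Grik4, while the other lay beside the Grik4 start. The intronic site with the highest Gfi1 value among the 5, chr9:42896177-42900466, lay 46.2 kb from the 5′ end and stood at 78.7 and 61.4 for Gfi1 and 76.4 and 77.9 for Lsd1. Another, chr9:42867636-42873034, lay 74.2 kb in and stood at 64.8 and 59.2 for Gfi1 and 89.3 and 63.5 for Lsd1. The other 3 lay 57.2 kb (chr9:42884593-42890046), 223 kb (chr9:42720398-42722728) and 375 kb (chr9:42568837-42570343) from the 5′ end, with percentiles between 15.9 and 62.5. Sites were thus most frequent in the first part of the gene, as the map of Grik4 shows.

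Peaks were denser in the body of Grik4 than over the genome in each library, and the flanks lay between. All peaks in the gene body numbered 5.16 and 2.81 per 100 kb for Gfi1 and 5.39 and 4.93 for Lsd1. The 500 kb upstream, which hold 5 other protein-coding genes, had 4.40, 1.60, 3.40 and 2.60, and the 500 kb downstream, which hold 4, had 1.40, 2.00, 2.20 and 2.60. Over all chromosomes the densities were 1.35, 0.920, 1.11 and 1.22, which the downstream flank barely exceeded for Gfi1 in tumor 39. The body of Grik4 holds no other protein-coding gene.

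**Figure D4:**
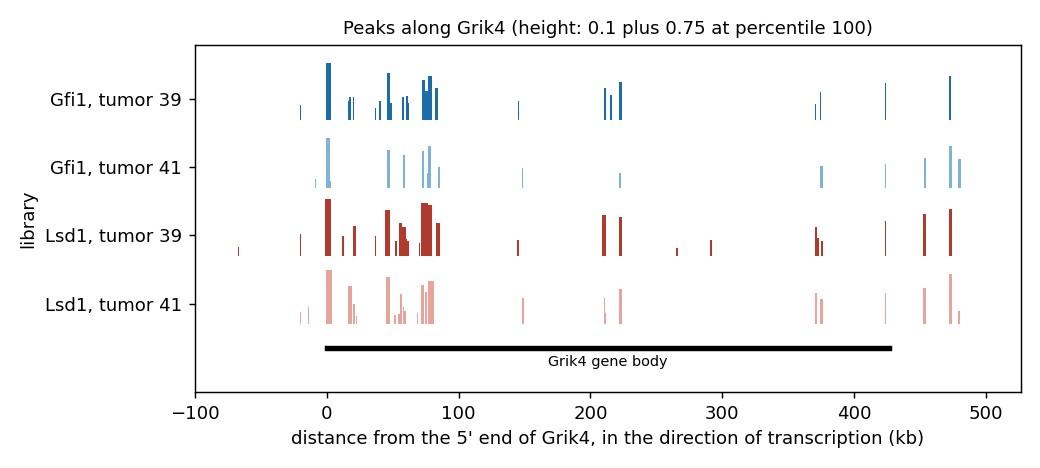
Bars mark the peaks of each library along Grik4 and 100 kb on either side, by distance in kb from the 5′ end in the direction of transcription; a taller bar has a higher score percentile within its list. All 4 libraries have their tallest bar at the 5′ end and a group of bars between 40 and 90 kb.

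Outside Grik4, 38 merged intronic sites lay in 15 receptor genes, and 21 of them had a peak in only 1 library. There were 4 sites with an intronic peak in all 4 libraries, and 5 counting any overlapping peak. At Grik3 these were chr4:125589146-125591353, 99.5 kb from the 5′ end and holding the RE1 match shown above (percentiles 40.5 and 43.5 for Gfi1 and 37.5 and 59.1 for Lsd1), and chr4:125702129-125704452 at 213 kb (25.3 and 7.70 for Gfi1, 40.1 and 51.8 for Lsd1). At Gabbr2 the site was chr4:46665426-46670155, 324 kb from the 5′ end (53.7 and 7.93 for Gfi1, 77.7 and 38.8 for Lsd1). At Gabrb1 it was chr5:72073738-72074723, 416 kb in (23.7 and 26.3 for Gfi1, 13.3 and 23.1 for Lsd1). Among the 18 genes without a TSS peak, 6 had an intronic peak (Gabra3, Gabrg1, Gabrg3, Gria3, Grik1 and Grm5), in each case in the Gfi1 library of tumor 39 only.

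Synapse partners of the receptors, a list of 49 genes, had more TSS peaks than the receptors themselves. Of the partners, 16 (32.7%) had a TSS peak in all 4 libraries, against 10 of the 46 receptor genes (21.7%) and 53.1% of all protein-coding genes. The share was carried by scaffold and adhesion genes (11 of 19), of which Homer1, which links group I metabotropic receptors to the postsynaptic density, Nlgn2, the neuroligin of inhibitory synapses, and Gphn, gephyrin itself, had the highest mean percentiles, at 98.5, 97.8 and 97.4. Gphn thus had TSS peaks from percentile 95.4 to 99.7, while the gene of its receptor partner, Glrb, had none. Transmitter synthesis and transport genes had 4 of 16, among them Slc6a9, a glycine transporter (95.8). Auxiliary receptor subunits had 1 of 14. Of 53 voltage-gated ion channel genes, 20 (37.7%) had a TSS peak in all 4 libraries, with Kcnc4, a potassium channel gene, highest at 95.4.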

How the data were processed

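Gfi1 and Lsd1 ChIP-seq libraries came from MG tumors 39 and 41, and same-numbered libraries share a tumor. The authors aligned reads to mm10 with BWA (version 0.6.2), discarded duplicate reads and ran MACS with its defaults on each library against input chromatin. Each deposited list holds coordinates and a score for every peak. The score is the authors' own, its definition is not given in the sources used here, and scores were compared only as percentiles within a list. Nothing else was in the lists, so that read depth and counting error are unknown.

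Genes and start sites were taken from GENCODE M21 (GRCm38, the build of mm10), whereas the authors used M9. The members were picked by symbol, but the symbol rule and all other gene lists were set with earlier results of these data known. All 46 members were counted. Genes given with values in every library were those with a TSS peak in all 4 libraries, and the synapse, channel and marker genes named were at most the 5 highest of a list. Glra1, Grin1 and other members with fewer peaks were named beside them. One gene whose symbol begins like a receptor's but which encodes none was left out. Some genes are counted but not reported by name here. High-confidence peaks followed the authors' rule with the score standing in for enrichment, a value absent from the lists, and these sets need not be the authors' sets. RefSeq promoters matched 30 of the 46 members. Intervals were counted with Python 3.11.15 and numpy 2.4.6, and the peak-to-gene assignment was tested on simulated peaks. Spreads are SDs over 2 tumors. Alternatives were other TSS windows and transcript sets, score limits, shared promoters left out, each replicate left out, other CpG limits, and other pairings of the libraries.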

Additional observations from a re-analysis of the deposited data

How the results depend on the processing

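Of 100 recomputed values over 26 results, 72 stayed within 1.5 times the reported one. A limit on the score moved the TSS counts most. With peaks in the upper 50% of the score, 17 receptor genes had a Gfi1 peak in tumor 39 (37.0%, against 58.2% of all protein-coding genes) and 5 in tumor 41 (10.9%, against 45.3%). For Lsd1 the shares were 28.3% against 50.2% and 34.8% against 54.2%, and 5 receptor genes had a peak in all 4 libraries. With the upper 20%, the counts were 5, 3, 3 and 4 (10.9%, 6.52%, 6.52% and 8.70%, against 36.2%, 24.6%, 28.1% and 32.2%). There were then 3 in all libraries and 40 in none. Leaving out peaks shared with another gene's start gave 7 for Gfi1 in tumor 41 and 6 for all libraries, and put receptor genes above all genes for Gfi1 in tumor 39 (45.7% against 44.3%). With each library left out in turn, between 10 and 17 receptor genes had a peak in all that remained, and the 17 came without Gfi1 replicate 2 (tumor 41). High-confidence Gfi1 genes numbered 1 with the upper 10%, 5 with the upper 40%, and from 3 to 5 with 1 replicate (5 without replicate 2). For Lsd1 there were 8 with the upper 40%. Genes with intronic peaks in the upper 50% numbered 2 and 1 for Gfi1 and 2 and 4 for Lsd1. Shares over all protein-coding genes were not computed for these counts, the high-confidence alternatives or the alternative counts in all or no library. Without Grik4, a choice made after seeing the data, intronic peaks per megabase were 2.47, 0.495, 0.907 and 1.65. Ranked among TSS peaks only, Gfi1 had median percentiles of 29.7 and 18.6 and Lsd1 of 32.2 and 38.5. The cause of these shifts was not tested beyond the smaller sets of peaks that score limits leave. Pairing the libraries across tumors in place of the same-tumor pairing gave 20 (Gfi1 of tumor 39 with Lsd1 of tumor 41) and 10 shared receptor genes. Since no test between groups was run, by choice, the pairing by tumor entered only as these counts. The lists limit what can be said: they hold no read counts, and absence of a peak is absence from a thresholded list.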

Other observations

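Within receptor genes, the Gfi1 lists held 8 (tumor 39) and 3 (tumor 41) exonic peaks away from any start. The Lsd1 lists held 3 (tumor 39) and 8 (tumor 41). The same count over all protein-coding genes was not computed, so these numbers cannot be called low or high. Grm4 had such exonic peaks in all 4 libraries. Grm4 also held 9 merged intronic sites, the most after Grik4, with 6 and 0 intronic peaks for Gfi1 and 2 and 8 for Lsd1.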
